A study of Mus musculus with 14 samples.

Results

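Type 1 classical dendritic cells (cDC1) are recognised in the mouse by a small set of surface and intracellular proteins, and 10 genes that encode such markers are described here across 7 sorted cell groups: Xcr1, Clec9a, Cadm1, Cd8a, Itgae, Wdfy4, Snx22, Cd36, Anpep and Ly75. The genes were taken by symbol. Of the 10, 9 were matched to array probes, out of 20284 genes that could be named on the larger of 2 array designs. Itgae was not matched by accession and is named only. Because CD8 was part of the gate of both splenic groups, Cd8a is described without being counted as a finding, which leaves 8 members for the counts below.

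Gene expression was measured on 14 single-colour Agilent arrays, 2 for each group, with RNA from C57BL/6 mice whose age the labels do not give. From bone marrow came wild-type (WT) granulocyte-monocyte progenitors (GMP), GMP from mice labelled IRF8KO, which lack the transcription factor IRF8 by that label, WT common dendritic cell progenitors (CDP), WT classical dendritic cell precursors (pre-cDC), and neutrophils (Neu), WT as well. From spleen came WT CD4+ cDC and WT CD8+ cDC, both sorted as CD11c+ MHC-II+. GMP of both genotypes carried CD117, among other markers, and lacked CD115, Sca-1, IL-7R and lineage markers. CDP shared the absence of lineage markers, IL-7R and Sca-1, had intermediate CD117 and carried CD115 and CD135. Pre-cDC lacked lineage markers and MHC-II and carried CD11c, CD135 and CD172a, and Neu were CD11b+ Ly6Ghi. Magnetic beads alone were used for CD4+ cDC, flow cytometry alone for neutrophils and both for the other groups. Whether both samples of a group are from different animals is not in the labels, and the p-values therefore cover the spread of these samples alone, which may be technical.

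Classical dendritic cells take up antigen and present it to T cells, and the cDC1 lineage is known for presenting material from dead cells on MHC class I, a process called cross-presentation. In mouse spleen these cells carry CD8 alpha, and they arise in the marrow from progenitors that pass through CDP and pre-cDC stages. XCR1 is the receptor for the chemokine XCL1 made by activated T and NK cells, CLEC9A (DNGR-1) is a lectin that binds actin filaments exposed by dead cells, and WDFY4 is an intracellular protein required for cross-presentation of cell-associated antigen.

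A level below is the log2 of the processed signal minus the array's 75th percentile, so 0 is the brightness of that percentile, and a difference is between group means on that scale. A probe is called well above background where the scanner software marked a share of 0.5 or more of its spots that way. Arrays differed in brightness: this percentile lay between signals of 77.4 and 516 on the 12 arrays of the larger design and 661 and 566 on the CD4+ cDC arrays, which were of a smaller design. Well above background were 39.4% to 53.7% of probes on the larger design and 61.4% and 59.7% on the smaller. Across genes, the 2 arrays of a group correlated at r = 0.992 to 0.998. The Irf8 probe read 6.19 ± 0.04 (SD, n = 2) on the arrays labelled IRF8KO and 4.83 ± 0.05 (SD, n = 2) in WT GMP, and since the sources used here do not place it relative to the altered part of the gene, it checks neither label. Of the members, 9 of 9 matched were well above background on both CD8+ cDC arrays. Slide and group cannot be told apart except for both GMP groups, which shared a slide, and for CD8+ cDC with Neu, which shared another. For CD4+ cDC, the array design, the slide and the bead-only purification also cannot be told apart from the cell type.

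Xcr1 stood at background everywhere but in CD8+ cDC. The level was 3.38 on both CD8+ cDC arrays, and the probe was well above background on no other array of the larger design. The remaining 10 arrays read -4.37 to -6.40, with pre-cDC at -4.75 and -4.37, CDP at -4.57 and -4.72, Neu at -4.92 and -4.57, and WT GMP at -5.23 and -5.35. These groups hold values that have no order, being background.

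Clec9a was already present at the CDP stage. CDP read 3.15 and 3.16, pre-cDC 3.44 and 3.38, and CD8+ cDC 6.50 and 6.58. The gene was not well above background on any of the 4 GMP arrays, at -3.25 and -4.72 in WT GMP and -5.80 and -6.55 on the arrays labelled IRF8KO, and it was low but detected in Neu at -1.51 and -1.77. Among the groups that showed it, none overlapped its neighbour, and CDP and pre-cDC lay close together.

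The 250 bases before the annotated start of both receptor genes are shown because Xcr1 and Clec9a differ in when they appear, and those before Cd8a because it alone among the members held a searched motif. The sequences are from RefSeq on GRCm38.p6, 5′ to 3′ on the gene's strand, and capitals mark matches of the ETS-IRF composite motif.
Xcr1 (chr9:123862030-123862279, minus strand): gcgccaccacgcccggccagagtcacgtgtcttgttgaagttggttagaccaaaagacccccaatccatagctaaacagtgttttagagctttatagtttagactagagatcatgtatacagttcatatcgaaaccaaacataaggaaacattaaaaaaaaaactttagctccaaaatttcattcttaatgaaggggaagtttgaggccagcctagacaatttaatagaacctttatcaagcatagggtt
Clec9a (chr6:129408612-129408861, plus strand): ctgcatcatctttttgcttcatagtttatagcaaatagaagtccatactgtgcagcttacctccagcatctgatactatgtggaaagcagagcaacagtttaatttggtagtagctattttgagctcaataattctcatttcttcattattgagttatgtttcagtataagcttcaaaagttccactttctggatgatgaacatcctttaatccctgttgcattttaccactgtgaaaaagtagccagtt
Cd8a (chr6:71373177-71373426, plus strand): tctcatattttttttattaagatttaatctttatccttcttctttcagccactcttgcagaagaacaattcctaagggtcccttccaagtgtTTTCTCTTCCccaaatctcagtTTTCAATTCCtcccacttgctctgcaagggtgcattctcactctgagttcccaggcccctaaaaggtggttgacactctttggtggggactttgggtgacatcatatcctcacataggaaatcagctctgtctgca
Of the 10 members, 8 had an entry in the sequence table, with 9 windows in all. The ETS-IRF composite motif, searched on both strands as GGAA, any 2 bases and GAAA, was in 2.3% of 32851 windows of the same length. Among the members it was found in Cd8a alone, with 2 matches on the minus strand that read TTTCTCTTCC and TTTCAATTCC on the printed strand, at 158 to 149 and 136 to 127 bases before the start. The core of the interferon-stimulated response element, GAAA, any 2 bases and GAAA, was in 2.98% of all windows and in no member's, and the AP-1 motif TGANTCA was in 6.75% and in no member's. A match describes the letters only. The windows differed in composition: G and C made up 38.8% of the Xcr1 window, 35.6% of that of Clec9a and 42.8% of that of Cd8a, against 72.8% for Anpep and 66.8% for Ly75 and a median of 52.4% over all windows. Clec9a and Cd8a held no CpG in this stretch, Xcr1 held 5 and Anpep 23.

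Cadm1, an adhesion molecule of the immunoglobulin superfamily that binds CRTAM on activated T and NK cells, followed Xcr1 with a trace in pre-cDC. CD8+ cDC read 3.79 and 3.76. Pre-cDC read -2.30 and -2.34, of which 1 array was well above background. CDP, Neu and both GMP groups were not, at -4.39 to -5.46.

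Cd8a, the CD8 alpha chain, followed the gate. Its brightest probe read 4.02 and 3.97 in CD8+ cDC and -2.34 and -3.47 in pre-cDC, with 1 pre-cDC array well above background. A second probe of the gene gave 4.56 and 4.82 in CD8+ cDC and was not well above background on the other 10 arrays of the larger design.

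Cd36, a scavenger receptor for lipids and apoptotic cells, was detected on the larger design in CD8+ cDC alone, at 3.29 and 3.18. The other 10 arrays read -3.62 to -6.62 without being well above background. Ly75, the endocytic receptor DEC-205, was the member that did not separate CD8+ cDC from Neu. It read -0.35 and -0.19 in CD8+ cDC and -0.04 and -0.24 in Neu, so these groups overlapped, and it was not well above background in GMP of either genotype, CDP or pre-cDC.

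Anpep, the membrane aminopeptidase CD13, was detected in every group of the larger design but Neu. WT GMP read -1.64 and -1.60, the arrays labelled IRF8KO -0.96 and -0.95, and CDP -1.36 and -1.29. Pre-cDC read 1.01 and 1.10 and CD8+ cDC 7.03 and 6.94. In Neu the probe was not well above background, at -5.28 and -5.00. No 2 groups overlapped.

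Among the intracellular members, Wdfy4 was bright in all groups. WT GMP read 5.51 and 5.47, the arrays labelled IRF8KO 5.79 and 5.73, CDP 6.48 and 6.50, pre-cDC 6.00 and 5.85, Neu 6.48 and 6.49, and CD8+ cDC 9.40 and 9.37. CD8+ cDC were thus the highest, and CDP and Neu overlapped. A second Wdfy4 probe was dim, at 1.62 and 1.73 in CD8+ cDC and -0.95 and -1.10 in Neu, and on the larger design it was well above background on at most 1 array of every other group. Snx22, a sorting nexin, a family of proteins that bind endosomal membranes, read 4.22 and 4.08 in CD8+ cDC. Neu at -0.73 and -0.90 overlapped pre-cDC at -0.50 and -1.73, and WT GMP, the arrays labelled IRF8KO and CDP overlapped each other between -2.51 and -2.86.

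**Figure D1:**
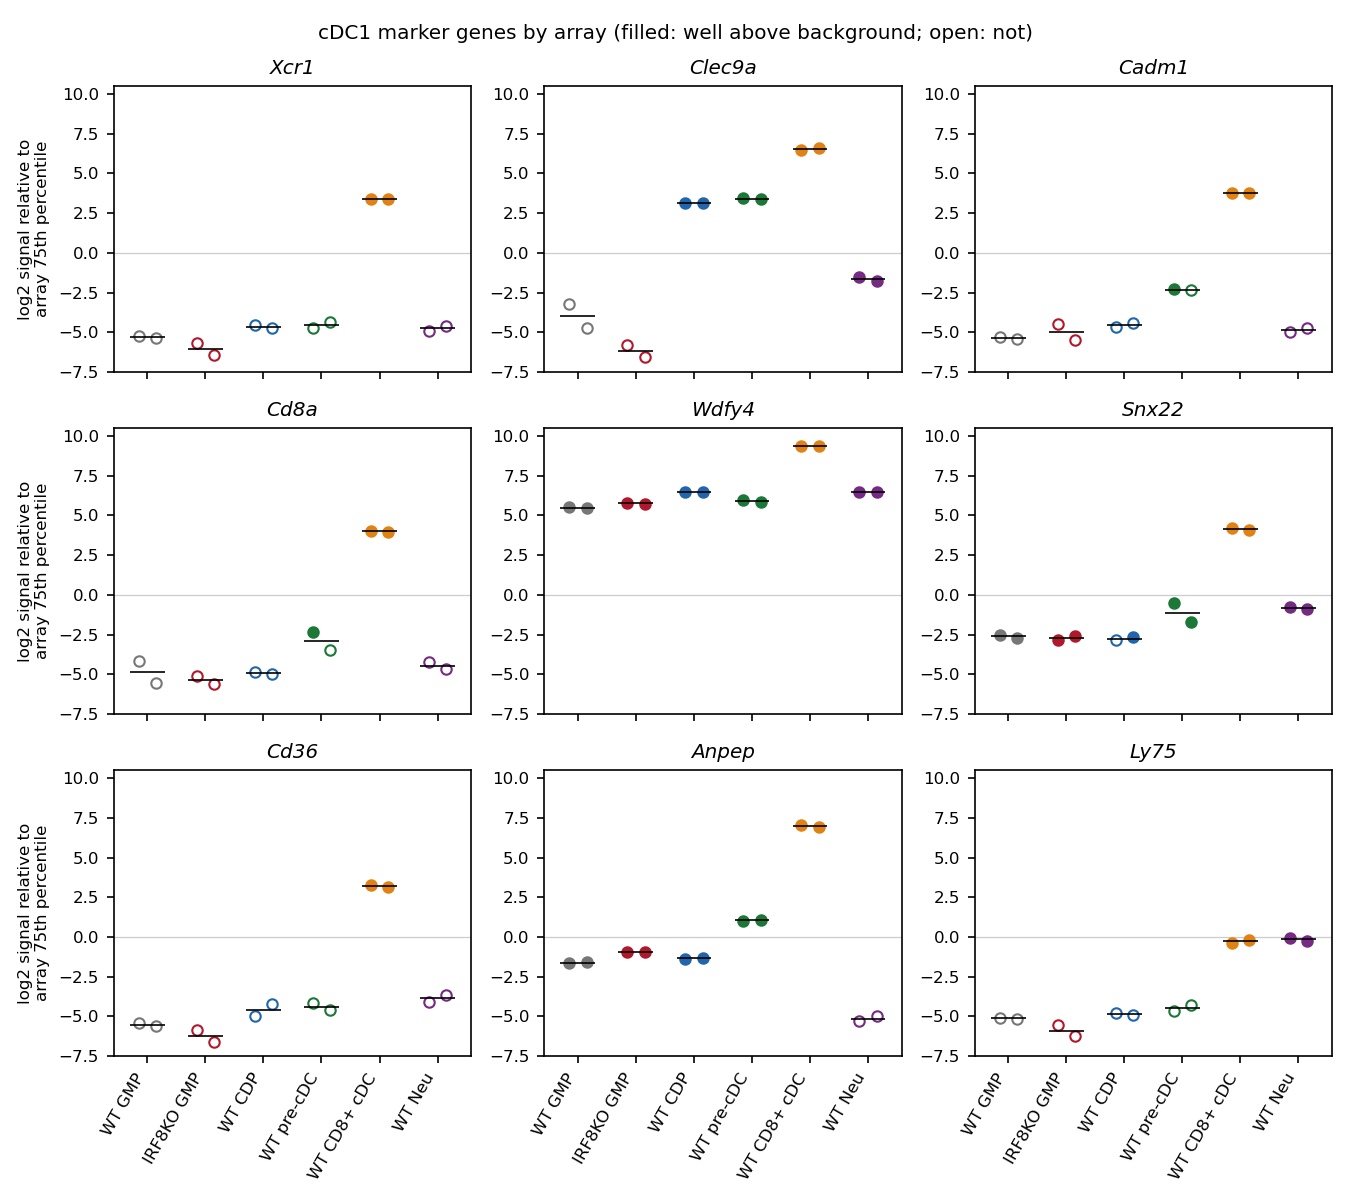
Levels of the 9 matched members on the 12 arrays of the larger design (y axis: log2 signal relative to the array's 75th percentile), 1 point per array and a line at each group's mean, filled where the probe was well above background. Xcr1 and Cd36 are filled in CD8+ cDC alone, Clec9a is filled from CDP onwards, Wdfy4 is filled in every group, and Ly75 lies at the same height in CD8+ cDC and Neu.

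The step from marrow pre-cDC to splenic CD8+ cDC asks which markers appear or rise when the mature cell is reached. All 8 members outside the gate were higher in CD8+ cDC by limma at an adjusted p under 0.05, where 40.3% of the 12597 genes tested were called higher, 34.4% lower and 74.7% in either direction. Of the 8, 4 were well above background on both arrays of both groups, and the other 4 (Xcr1, Cadm1, Cd36 and Ly75) passed the filter on dim probes through CD8+ cDC only, so their count is not a finding. In these sorted bulk samples, a change in the share of cells with a transcript and a change in RNA per cell cannot be told apart, nor can tissue and stage.

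Among the members measured in both groups, Snx22 rose 38.5-fold (5.27 ± 0.34 on the log2 scale, SE, n = 2 arrays per group throughout, adjusted p = 3.03e-06). Anpep rose 61.0-fold (5.93 ± 0.09, adjusted p = 2.76e-09). Wdfy4 rose by 3.46 ± 0.06 (adjusted p = 4.72e-09) and Clec9a by 3.13 ± 0.43 (adjusted p = 0.000279). Each of these 4 differences was larger than the spread between arrays, and in each gene both CD8+ cDC arrays lay above both pre-cDC arrays.

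For the members that pre-cDC did not show, a lower bound sets the CD8+ cDC mean against the lowest signal that was well above background on each pre-cDC array, or the probe's own where that was higher. Xcr1 was at least 69.1-fold higher in CD8+ cDC (adjusted p = 5.87e-08). Cd36 was at least 62.4-fold higher (adjusted p = 3.01e-07) and Ly75 at least 5.48-fold (adjusted p = 1.08e-06). Cadm1, with 1 of 2 pre-cDC arrays well above background, was higher by 6.09 ± 0.27 (adjusted p = 4.21e-07). These bounds hold for the processed signal: with normexp, whose offset of 50 raises dim signals, the differences were smaller, at 4.60 for Xcr1, 4.56 for Cd36, 1.37 for Ly75, 4.52 for Cadm1 and 4.49 for Snx22 on the log2 scale, all called. Without pre-cDC replicate 1 or 2, the Snx22 difference was 5.88 or 4.65. The gate marker Cd8a differed by 6.90 ± 0.49.

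Earlier in the marrow, Clec9a was well above background in CDP and not in WT GMP. It was at least 107.2-fold higher in CDP (adjusted p = 1.98e-06), having passed the filter through CDP only, so that its call is not a finding, and with normexp the difference was 4.69. Of the 8 members, 4 could be tested and 3 were called higher, where 78.0% of the 11899 genes tested were called, 51.9% higher and 26.1% lower. Wdfy4 rose by 0.999 ± 0.06 (adjusted p = 1.99e-06), against a median of 0.31 over all genes tested, and by 0.27 with quantile normalization (adjusted p = 0.0192). Wdfy4 and Anpep were the 2 members well above background on both arrays of both groups. Anpep differed by 0.30 ± 0.09 (adjusted p = 0.0173), the size of that median, and with the percentile taken over probes detected on all arrays it was lower by 0.22 (-0.22, adjusted p = 0.0404), so its direction rests on the scaling. The call for Anpep was also lost without WT GMP replicate 1 (0.28, adjusted p = 0.0760), without WT GMP replicate 2 (0.31, adjusted p = 0.0506) or without CDP replicate 2 (0.27, adjusted p = 0.0798), and with array medians (0.27, adjusted p = 0.109). Snx22 was not called (-0.14 ± 0.34, adjusted p = 0.723), but with normexp background correction it was higher in CDP (0.68, adjusted p = 0.00152).

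From CDP to pre-cDC, Anpep rose while Clec9a stayed within its error. Anpep rose 5.21-fold (2.38 ± 0.09 on the log2 scale, adjusted p = 2.21e-07). Snx22 was higher by 1.63 ± 0.34 (adjusted p = 0.00223), with pre-cDC at -0.50 and -1.73 and 1 of 2 CDP arrays well above background. It thus passed the filter through pre-cDC only, so its call is not a finding. Without pre-cDC replicate 1 the Snx22 difference was 1.02 (adjusted p = 0.000847), without pre-cDC replicate 2 it was 2.24 (adjusted p = 1.85e-05), and with normexp 0.39 (adjusted p = 0.0360). Of the 8 members, 4 were tested, and 2 were called higher, Snx22 among them, and 1 lower. Well above background on both arrays of both groups were 3 members, of which 1 was called higher and 1 lower. Over all genes, 84.2% of the 11481 tested were called, 23.9% higher and 60.3% lower, with a median of -0.54. Clec9a differed by 0.26 ± 0.43 (adjusted p = 0.594). That difference was called in the fit of these 4 arrays alone (SE 0.06, adjusted p = 0.0188) and with normexp (0.52, adjusted p = 0.00631), and it was -0.21 with array medians, so its call and its sign depend on the setting. Wdfy4 was called lower by limma (-0.57 ± 0.06, adjusted p = 4.49e-05), which is the shift of all genes, and it read 0.087 with quantile normalization and 0.12 in the authors' deposited values, neither called.

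Neutrophils carried part of the set. Of the 8 members, 5 were tested between Neu and WT GMP and 5 were called, 4 higher and 1 lower, where 92.4% of the 12521 genes tested were called, 46.0% higher and 46.4% lower. Ly75 was at least 11.2-fold higher in Neu (adjusted p = 1.07e-07) and Clec9a at least 3.86-fold (adjusted p = 0.000960). Snx22 rose by 1.79 ± 0.34 (adjusted p = 0.00106) and Wdfy4 by 0.99 ± 0.06 (adjusted p = 7.88e-07). Anpep was at least 2.41-fold lower in Neu (adjusted p = 3.84e-09). Of these 5, Wdfy4 and Snx22 were well above background on both arrays of both groups, while Ly75 and Clec9a passed the filter through Neu only and Anpep through WT GMP only, so their calls are not a finding. With normexp the differences were 2.56 for Ly75, 1.31 for Clec9a, 1.17 for Snx22 and -0.54 for Anpep, and with the mean of all probes 1.95 for Wdfy4, all called.

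Against neutrophils, 4 of the 8 members were well above background on both arrays of both groups, and 3 of these were higher in CD8+ cDC. Over all genes, 43.9% of the 12817 tested were called higher, 41.9% lower and 85.8% in either direction. A further 4 members (Xcr1, Cadm1, Cd36 and Anpep) passed the filter through CD8+ cDC only, so their calls are not a finding. The 2 groups shared a slide, so these values are within it. Measured in both groups, Clec9a differed by 8.18 ± 0.43 (adjusted p = 3.77e-07), Snx22 by 4.97 ± 0.34 (adjusted p = 1.87e-06) and Wdfy4 by 2.90 ± 0.06 (adjusted p = 1.75e-09). Not well above background in Neu, Anpep was at least 941-fold higher in CD8+ cDC (adjusted p = 4.45e-11), Cadm1 at least 101-fold (adjusted p = 1.67e-08), Xcr1 at least 77.5-fold (adjusted p = 1.18e-08) and Cd36 at least 69.9-fold (adjusted p = 1.44e-07). With normexp the differences were 8.50 for Anpep, 4.99 for Cadm1, 4.40 for Xcr1, 4.39 for Cd36 and 7.12 for Clec9a, all called. Ly75 was the exception, at -0.13 ± 0.22 (adjusted p = 0.591). Its sign turned with array medians (0.10) and with the percentile over detected probes (0.15), and the authors' deposited values gave a call in favour of Neu (-0.34, adjusted p = 0.0264). In the fit of these 4 arrays alone, Clec9a, Snx22 and Wdfy4 were called again (adjusted p = 1.21e-05, 1.92e-05 and 2.20e-05). This comparison shares its CD8+ cDC arrays with the others and its Neu arrays with the one before.

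**Figure D2:**
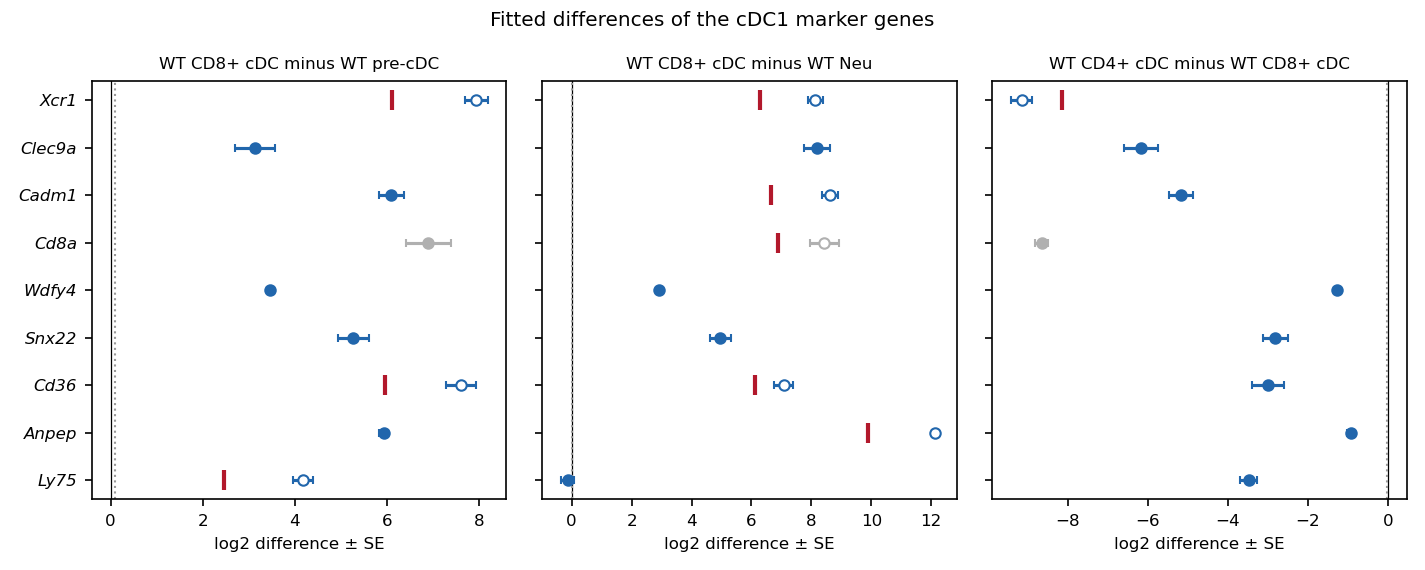
Fitted differences (log2 scale, x axis) with their SE for each matched member in 3 comparisons by limma. Open points mark genes that no array of the lower group showed well above background, red ticks their at-least bound, grey points the gate marker Cd8a and dotted lines the median of all genes tested; Ly75 sits near 0 against Neu, and Anpep and Wdfy4 show the smallest differences between CD4+ and CD8+ cDC.

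In GMP labelled IRF8KO, the surface receptors that define the mature cell could not be compared, since neither genotype showed them above background. Xcr1, Clec9a, Cadm1, Cd36 and Ly75 were not well above background on the 4 GMP arrays. With 3 of 8 members tested, 2 were called higher and none lower, where 15.2% of the 12156 genes tested were called higher, 9.98% lower and 25.2% in either direction. Anpep was 1.58-fold higher on the arrays labelled IRF8KO (0.66 ± 0.09 on the log2 scale, adjusted p = 0.00161), both arrays lay above both WT arrays, and within their slide alone the adjusted p was 0.00175. Wdfy4 was higher by 0.27 ± 0.06 (adjusted p = 0.0154, and 0.0204 within the slide). The Wdfy4 call was lost without WT GMP replicate 1 (adjusted p = 0.0567), WT GMP replicate 2 (adjusted p = 0.0916) or IRF8KO GMP replicate 1 (adjusted p = 0.106), and also with quantile normalization (adjusted p = 0.144), array medians (adjusted p = 0.168), the authors' deposited table (adjusted p = 0.0919) and the mean of all probes (adjusted p = 0.413). Snx22 differed by -0.09 ± 0.34 (adjusted p = 0.890).

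Both splenic populations are compared on the 39429 probes that the 2 designs share, each array scaled to its own 75th percentile over those probes, so that levels here are not those given above. All 8 members were lower in CD4+ cDC than in CD8+ cDC, where 38.6% of the 13547 genes tested were called lower, 36.3% higher and 74.9% in either direction. Of the 8, 7 were well above background on both arrays of both groups, all 7 lower in CD4+ cDC. Xcr1 passed the filter through CD8+ cDC only, so its call is not a finding. Among these 7, the difference ran from 1.91-fold for Anpep to 71.6-fold for Clec9a, and the smaller ones depended on the scaling.

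The receptors differed most. Xcr1 read -7.11 and -6.60 in CD4+ cDC, not well above background, against 2.29 and 2.28 in CD8+ cDC. For the processed signal it was at least 280-fold lower (adjusted p = 1.53e-08, a call through CD8+ cDC only), with a difference of -5.27 under normexp. Clec9a read -0.97 and -0.47 against 5.41 and 5.48 (-6.16 ± 0.43, adjusted p = 2.15e-06), and marrow pre-cDC stood between at 2.33 and 2.30 on these probes. Cadm1 read -2.15 and -2.84 against 2.70 and 2.66 (-5.17 ± 0.30, adjusted p = 8.09e-07, and -4.42 with normexp). In each of these genes the lower CD8+ cDC array was far above the higher CD4+ cDC array.

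The uptake receptors differed less. Ly75 read -4.89 and -4.80 in CD4+ cDC against -1.44 and -1.30 in CD8+ cDC (-3.48 ± 0.21, adjusted p = 1.09e-06, and -1.65 with normexp). Cd36 read -0.29 and -1.43 against 2.20 and 2.07 (-3.00 ± 0.41, adjusted p = 0.000152). Beside Cd36, which macrophages also express, the summed linear level of 10 macrophage and monocyte markers was 146 and 98.8 on the CD4+ cDC arrays and 20.6 and 20.3 on the CD8+ cDC arrays, with 9 of 10 well above background in each group. Of these 9, 7 were called higher in CD4+ cDC and 1 lower, where 36.3% of all genes tested were called higher and 38.6% lower. The brightest of the 10 in CD4+ cDC, and so the one with most weight in the sum, was Csf1r at 6.17. Next came Adgre1 at 3.57 and Vcam1 at 3.37. On the larger design Csf1r also read 8.25 in CDP and 6.90 in Neu. The part of the marker list in the Cd36 level of CD4+ cDC was not tested.

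Snx22, Wdfy4 and Anpep were detected at substantial levels in both. Snx22 read 0.28 and 0.20 in CD4+ cDC against 3.14 and 2.97 in CD8+ cDC (-2.81 ± 0.31, adjusted p = 4.31e-05). Wdfy4 read 6.92 and 7.13 against 8.31 and 8.27, a 2.40-fold difference (-1.27 ± 0.07, adjusted p = 7.80e-07). Anpep read 4.99 and 4.93 against 5.94 and 5.84, a 1.91-fold difference (-0.93 ± 0.09, adjusted p = 1.50e-05). With quantile normalization Anpep differed by -0.20 (adjusted p = 0.0163) and Wdfy4 by -0.59 (adjusted p = 0.000210), and in the authors' deposited values by -0.21 (adjusted p = 0.0151) and -0.54 (adjusted p = 0.000261). On the same probes pre-cDC read 4.89 and 4.77 for Wdfy4 and -0.10 and 0.02 for Anpep, below both splenic groups. The gate marker Cd8a read -5.30 and -4.80 in CD4+ cDC and 3.47 and 3.72 in CD8+ cDC by its brighter probe on this scale.

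**Figure D3:**
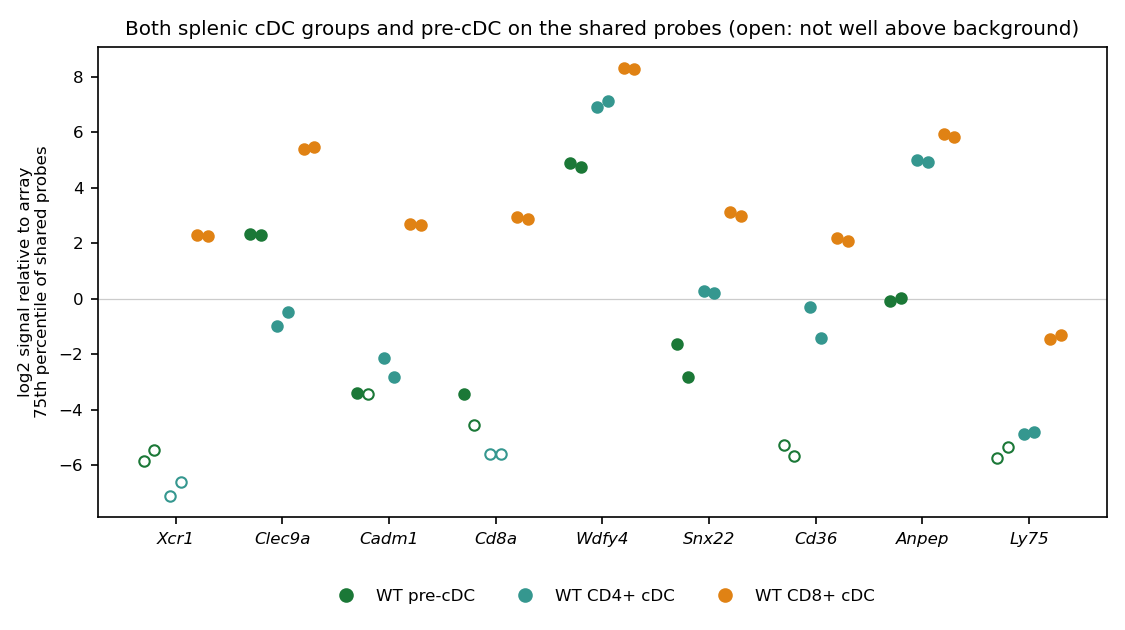
Levels of the 9 matched members on the probes shared by both array designs (y axis: log2 signal relative to the 75th percentile of those probes), 1 point per array for pre-cDC, CD4+ cDC and CD8+ cDC, open where not well above background, with Cd8a shown by its probe that was brightest on the larger design. CD8+ cDC are the highest for each gene. Clec9a in CD4+ cDC lies below pre-cDC, while Cadm1, Wdfy4, Snx22, Cd36, Anpep and Ly75 in CD4+ cDC lie above it.

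Markers of other cells moved with the groups. In CD8+ cDC, 5 of 12 T and NK cell markers (Cd3g, Cd247, Trat1, Klrb1c and Ncr1) were not well above background, and 7 were on both arrays. On the larger design, Nkg7, Cd3e and Cd5 read 2.82, 1.63 and 1.18 there. Lck, Gzma, Cd3d and Cd28 read -0.78, -1.05, -1.94 and -2.20. The summed level of the 12 was 6.82 and 6.41 in CD8+ cDC, against 12.3 and 15.6 in pre-cDC and 12.8 and 15.8 in CD4+ cDC. The 8 plasmacytoid markers summed to 132 and 107.5 in CD8+ cDC, 329 and 326 in pre-cDC and 38.8 and 46.7 in CD4+ cDC. The 12 cDC2 genes, markers of the other classical dendritic cell lineage, summed to 118 and 106.8 in CD8+ cDC, 123 and 124 in pre-cDC and 200.04 and 216 in CD4+ cDC. Bright genes weigh most in such linear sums. On the larger design the brightest plasmacytoid marker in CD8+ cDC was Siglech at 7.84, which also read 6.85 in WT GMP and 8.55 in Neu. The brightest cDC2 gene there was Mgl2 at 7.36, which also read 7.53 in WT GMP and 6.41 in Neu. Klk1, Cox6a2 and Ly6d read -4.08, -2.47 and -1.10 in CD8+ cDC, and Bst2, Ccr9, Tcf4 and Spib 3.75, 2.75, 1.55 and 1.07. The 7 B cell markers summed to 3.23 and 3.26 in CD8+ cDC, 7.14 and 7.66 in pre-cDC and 10.73 and 11.64 in CD4+ cDC. On the larger design, Ms4a1 read 2.32 in CD8+ cDC, well above background on both arrays. In pre-cDC it read -4.52 and was well above background on neither. Cd79b read 0.70 in CD8+ cDC and 3.88 in pre-cDC. Of the 4 B cell markers tested between these groups, 1 was called higher and 2 lower in CD8+ cDC. Erythroid markers summed to 301 and 406 in CD4+ cDC, 85.7 and 92.6 in CD8+ cDC and 2.45 and 2.58 in pre-cDC, and neutrophil markers to 27.0 and 35.4, 10.1 and 9.54, and 24.3 and 25.9 in that order. The macrophage and monocyte markers, given above for both splenic groups, summed to 54.3 and 57.5 in pre-cDC, above CD8+ cDC. Of the 10, 4 were well above background in both pre-cDC and CD8+ cDC, of which Adgre1 and C1qb rose and Csf1r (-2.34 ± 0.05, adjusted p = 1.62e-08) and Ccr2 (-3.14 ± 0.20, adjusted p = 2.85e-06) fell. Among those that pre-cDC did not show, Vcam1 was at least 70.0-fold, Spic at least 26.2-fold and C1qc at least 14.4-fold higher in CD8+ cDC, though C1qc was lower under 1 other scaling (-0.54). Having passed the filter through CD8+ cDC only, their calls are not a finding. The part of these cells in the members' levels was not tested.

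A further 18 genes associated with cDC1, of which 16 were measured, were read beside the members. From pre-cDC to CD8+ cDC, 9 of the 16 were well above background in both groups, and 8 of those rose and 1 fell, where 40.3% of all genes tested rose and 34.4% fell. Naaa, a lysosomal amidase, rose by 4.35 ± 0.08 (adjusted p = 7.09e-09). Genes that pre-cDC did not show included Cd207, the lectin langerin (at least 123-fold higher), Gcsam, a signalling adaptor (at least 88.4-fold), and Tlr11, a Toll-like receptor for profilin of protozoan parasites (at least 222-fold). These genes passed the filter through CD8+ cDC only, so their calls are not a finding, and the bounds hold for the processed signal. The 1 that fell was Septin3, a cytoskeletal GTPase (-0.21 ± 0.08, adjusted p = 0.0400), whose sign turned under another scaling (0.05).

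Some of these genes shared the early rise of Clec9a. From WT GMP to CDP, the inhibitory receptor gene Btla rose by 3.28 ± 0.32 (adjusted p = 2.89e-05), Tlr12, the partner of Tlr11, by 3.24 ± 0.38 (adjusted p = 9.89e-05), and Naaa by 1.95 ± 0.08 (adjusted p = 3.46e-07). In all, 8 of the 16 were tested, 5 rose and 1 fell, where 51.9% of all genes tested rose and 26.1% fell, with a median of 0.76 against 0.31 over all genes tested. Between the splenic groups, 12 of the 16 were well above background in both, and these 12 were lower in CD4+ cDC, where 38.6% of all genes tested were. Rab7b, a small GTPase of late endosomes, was lower by 9.16 (-9.16 ± 0.52, adjusted p = 6.49e-07), and read -3.87 ± 1.46 (SD, n = 2) in CD4+ cDC. Cd207 and Gcsam are not among these 12: neither was well above background in CD4+ cDC, so their calls are not a finding. For the processed signal, Cd207 was at least 500-fold lower there and Gcsam at least 355-fold. On the arrays labelled IRF8KO, 3 of 8 tested fell and 2 rose, where 9.98% of all genes tested fell and 15.2% rose: Clnk, an adaptor of immune receptors, differed by -2.35 ± 0.26 (adjusted p = 0.000574), Btla by 1.44 ± 0.32 (adjusted p = 0.0140) and Rab7b by 0.92 ± 0.14 (adjusted p = 0.00254).

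Regulators of dendritic cell development changed stage by stage. Batf3, the transcription factor that cDC1 need, was not well above background in WT GMP. It was at least 5.56-fold higher in CDP (adjusted p = 6.61e-07), having passed the filter through CDP only, so that this call is not a finding. Well above background in the later groups, Batf3 was higher by 3.30 ± 0.15 in pre-cDC than in CDP (adjusted p = 3.89e-07). It was higher again by 4.06 ± 0.15 in CD8+ cDC (adjusted p = 1.40e-07). Irf8 rose by 4.14 ± 0.07 from WT GMP to CDP (adjusted p = 6.25e-09) and differed by -0.46 ± 0.07 between CD8+ cDC and pre-cDC (adjusted p = 0.000485), a call kept in 4 of 5 other scalings. Id2, an inhibitor of E proteins, rose by 4.86 ± 0.11 from pre-cDC to CD8+ cDC (adjusted p = 1.70e-08). Of the 12 regulators, 8 rose and 3 fell at that step, where 40.3% of all genes tested rose and 34.4% fell. From WT GMP to CDP, 9 of the 12 were well above background in both groups, and these 9 rose, where 51.9% of all genes tested did. Not all of these rises were large: Etv6 read 2.92 in WT GMP and 3.23 in CDP, and Spi1 0.93 and 1.35. The median difference of all genes at that step was 0.31, and -0.20 with the detected-probe percentile. The direction of such small rises may therefore rest on the scaling, as for Anpep.

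Between the splenic groups the regulators split, with 5 of 12 higher and 5 lower in CD4+ cDC, where 36.3% of all genes tested were higher and 38.6% lower. Irf8 was lower there (-5.21 ± 0.11, adjusted p = 3.29e-09), while Irf4, which cDC2 use, was higher by 4.12 ± 1.09 (adjusted p = 0.00777) and Relb, an NF-kappa-B subunit, by 2.84 ± 0.13 (adjusted p = 1.67e-07). The SE of Irf4 pools the spread of all groups. Its SD was 3.16 in Neu and 0.05 in CD8+ cDC on the larger design, and 0.08 in CD4+ cDC on the shared probes. Batf3 was not called (-0.30 ± 0.15, adjusted p = 0.0889). Its sign turned in 2 of 5 other scalings, between -0.56 and 0.25 over all of them.

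**Figure D4:**
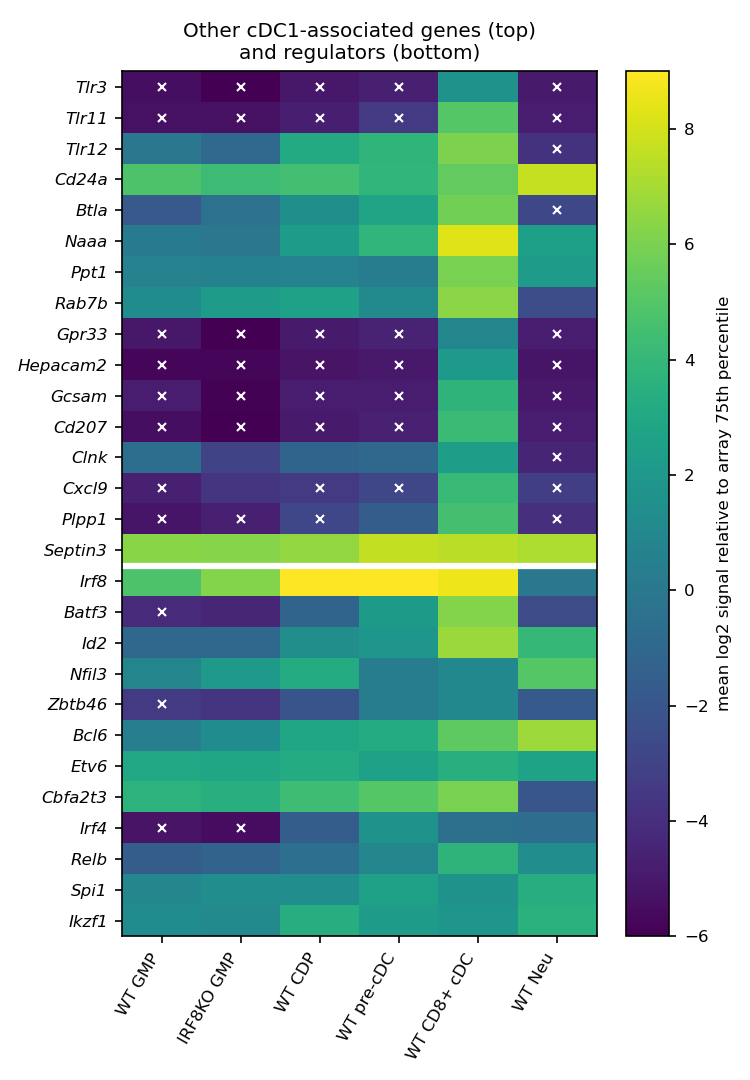
Mean levels (colour, log2 signal relative to the array's 75th percentile, n = 2 arrays) of 16 other cDC1-associated genes and 12 regulators in the groups of the larger design, to be read along each row, with a cross where no array of the group was well above background. Tlr3, Tlr11, Gpr33, Hepacam2, Gcsam and Cd207 have crosses in each group but CD8+ cDC, while Btla, Naaa and Tlr12 brighten from CDP onwards.

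Of the genes whose products bind the members' proteins or signal from them, more fell than rose on reaching CD8+ cDC. From pre-cDC to CD8+ cDC, 5 of 10 were well above background in both groups, of which 1 rose and 4 fell, where 40.3% of all genes tested rose and 34.4% fell. Itgb7, the integrin beta chain that pairs with the Itgae product, fell by 1.97 (-1.97 ± 0.08, adjusted p = 1.86e-07), and Syk, the kinase through which CLEC9A signals, fell by 1.19 (-1.19 ± 0.07, adjusted p = 1.31e-06). Cdh1, which encodes the E-cadherin that this integrin binds, was at least 3.79-fold lower in CD8+ cDC. It passed the filter through pre-cDC only, so its call is not a finding. Itgb7 had risen by 4.57 ± 0.08 from WT GMP to CDP (adjusted p = 5.70e-09). Xcl1, the ligand of XCR1, read -3.21 in CD8+ cDC on average and differed from pre-cDC by 0.30 ± 0.32 (adjusted p = 0.408). Cd8b1, the CD8 beta chain gene, was at -2.88 in CD8+ cDC, a difference of -0.51 ± 0.48 from pre-cDC (adjusted p = 0.364), beside the Cd8a levels near 4 given above. On the arrays labelled IRF8KO, Itgb7 (-1.08 ± 0.08, adjusted p = 5.67e-05), Fyn, a Src family kinase gene (-1.40 ± 0.11, adjusted p = 0.000106), and Cdh1 (-1.49 ± 0.19, adjusted p = 0.00120) fell.

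Of 19 genes of the cross-presentation machinery, 18 were well above background in both pre-cDC and CD8+ cDC, with 13 higher and 4 lower in CD8+ cDC, where 40.3% of all genes tested were higher and 34.4% lower. Rab43, a small GTPase reported to act in cross-presentation by CD8+ cDC, rose by 2.80 ± 0.05 (adjusted p = 6.40e-09). Cybb and Rac2, which encode parts of the phagocyte oxidase, fell (-3.84 ± 0.24, adjusted p = 2.41e-06, and -2.45 ± 0.05, adjusted p = 1.18e-08). Between the splenic groups, Rab43 was lower in CD4+ cDC (-1.59 ± 0.05, adjusted p = 3.96e-08) and Cybb higher (4.12 ± 0.23, adjusted p = 5.33e-07). Of the 19, 5 were higher and 11 lower in CD4+ cDC, where 36.3% of all genes tested were higher and 38.6% lower.

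How alike the members were is given as a description over the 12 arrays of the larger design, which form 6 groups of 2, so that the points of a group are not independent and background values enter. Xcr1 correlated with Cd36 at r = 0.989, with Wdfy4 at 0.973, with Cadm1 at 0.966, with Clec9a at 0.731 and with Ly75 at 0.662. The lowest value among the 36 pairs was 0.212, for Anpep with Ly75, and Clec9a with Ly75 gave 0.465. Among 8793 other genes detected in at least 1 group and with a range of at least 2 between group means, those most like Xcr1 were 1600029I14Rik, Dkk3, Mab21l3, Spint1 and Cd207, with r of 0.9995 or more. Those most like Clec9a were Nfatc2 (0.989), Ctss (0.988), Klrk1 (0.986), Aif1 (0.986) and Prkab2 (0.986).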

How the data were processed

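The members, gene lists and tests were chosen with earlier results of these data known. Per the file headers, the scans were read with Agilent Feature Extraction 10.7.3.1, and the deposited spot intensity used here is its processed signal, from which background had been subtracted with a spatial detrend, with no step between arrays. The authors' deposited table holds intensities on a linear scale, whose sorted values were equal across arrays, by a method not given in the sources used here. It served as an alternative. Per the labels' protocols, total RNA was amplified and labelled with a low-input kit.

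Control spots and outlier spots were left out, leaving 59305 spots of 55681 probes (larger design) and 43020 spots (smaller). No spot was saturated. The log2 processed signal was averaged over a probe's spots and scaled to each array's 75th percentile. Probes were named through unversioned accessions in RefSeq's gene table (GRCm38.p6, names only): 26762 probes had 1 symbol and 28919 none. A gene took its brightest probe. Where the designs gave a probe different accessions, that of the larger was used.

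The 6 comparisons on the larger design were fitted together with limma 3.58.1 (lmFit, contrasts, eBayes, two-sided, R 4.3.3) over 12 arrays (total degrees of freedom 7.56), and CD4+ against CD8+ cDC over 14 arrays on the 39429 shared probes. Benjamini-Hochberg adjustment ran over genes that both arrays of 1 or both groups compared showed well above background, and calls are at an adjusted p under 0.05. SE comes from the fit. At-least folds are given where no array of the lower group was well above background, and they hold for the processed signal only. Named genes were the members, up to 3 called genes with the largest change per list and comparison, the regulators and partners that bear on a member, and the 5 genes most alike; Naaa at the step to CD8+ cDC and Septin3 were added after their values were seen. The fit was tested on simulated arrays. Data were read with R's data.table package and figures drawn with matplotlib 3.10.9. Alternatives were other background corrections, scalings, filters, probe rules, fewer arrays and the replicate number as a block.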

Additional observations from a re-analysis of the deposited data

How the results depend on the processing

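Counts of called members kept within 1.5 times their value in 84 alternatives over all comparisons and moved further in 7. Those 7 concern IRF8KO GMP against WT GMP, where 2 members were called, and 1 with quantile normalization, array medians, the authors' table or the mean of all probes of a gene. Leaving out single arrays gave 1 to 2 there, 2 to 3 for CDP against WT GMP, 3 to 4 for pre-cDC against CDP, and 8, 5, 7 and 8, without change, for CD8+ cDC against pre-cDC, Neu against WT GMP, CD8+ cDC against Neu and CD4+ against CD8+ cDC.

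Among alternative values for single members, 534 kept direction and side of the threshold, 13 lost and 3 gained a call, and 9 changed sign; the cause was not tested. The sign changes were Snx22 from WT GMP to CDP with normexp (0.68, on the median signal, chosen after seeing the data), Wdfy4 from CDP to pre-cDC with quantile normalization (0.087) and the authors' table (0.12), Clec9a there with array medians (-0.21), Ly75 between CD8+ cDC and Neu with array medians (0.10) and the detected-probe percentile (0.15), Anpep from WT GMP to CDP with that percentile (-0.22), and Snx22 on the arrays labelled IRF8KO without WT GMP replicate 1 (0.01) or without IRF8KO GMP replicate 1 (0.030), where leaving out single arrays gave -0.20 to 0.030.

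Over all genes, the IRF8KO comparison called 3058, but 1485 with array medians and 1851 to 1992 without single arrays. The split of calls between higher and lower moved with scaling. Higher calls were 66.5% for CDP against WT GMP, but 40.4% with the detected-probe percentile, 51.8% with quantile normalization and 52.4% in the authors' table. For pre-cDC against CDP they were 28.4%, but 16.5% with array medians, 39.6% in the authors' table and 51.1% with that percentile. For CD8+ cDC against pre-cDC they were 53.9%, but 66.8% with array medians. For CD4+ against CD8+ cDC they were 48.5%, but 63.6% with array medians and 59.2% with that percentile. Over genes, same-numbered arrays of the groups compared deviated together at r = -0.08 to 0.02, so the numbers are not taken as a pairing. With the replicate number as a block, the counts of called members were 3, 3, 8, 2, 5, 7 and 8 for CDP against WT GMP, pre-cDC against CDP, CD8+ cDC against pre-cDC, IRF8KO against WT GMP, Neu against WT GMP, CD8+ cDC against Neu and CD4+ against CD8+ cDC, as without it. Genes near background have only bounds, and each group has 2 arrays.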
